A study of Homo sapiens with 282 samples.

Results

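The ATF4 amino acid and stress response genes are a list of 36 named genes that the transcription factor ATF4 is known to drive, together with ATF4 itself and its partner factors. The rule that selects them is a list of gene symbols and uses no measured value, although earlier results of these data were known when the list was drawn up. Of the 36, 35 were measured among 18239 genes; GPT2 matched no probe set. The list falls into 7 transcription factors, 6 stress regulators, 6 enzymes of serine and one-carbon metabolism, 4 other amino acid enzymes, 7 amino acid transporters and 5 genes of secreted, surface and tRNA export proteins.

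ATF4 is the effector of the integrated stress response. Kinases that sense amino acid shortage, misfolded protein in the endoplasmic reticulum, double-stranded RNA or lack of heme phosphorylate the translation initiation factor eIF2, which slows general protein synthesis but lets ribosomes reach the ATF4 coding sequence. ATF4 then pairs with C/EBP and related proteins on composite DNA elements and raises genes that make, import and charge amino acids, and genes such as DDIT3 and TRIB3 that limit growth or survival when the stress lasts. Growth signalling through mTORC1 is also known to raise ATF4 in unstressed cells.

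RNA levels were measured on 282 arrays of OCI-Ly3, an established human line of diffuse large B-cell lymphoma, with 94 arrays at each of 6, 12 and 24 h. The cells had been given one of 14 compounds, and 13 of them were used at both a higher and a lower concentration, with 3 arrays per concentration and time. These were Aclacinomycin A at 0.105 and 0.036 uM and Doxorubicin at 0.101 and 0.03 uM (anthracyclines), Camptothecin at 0.31 and 0.01 uM (a topoisomerase I inhibitor), Etoposide at 0.812 and 0.811 uM (a topoisomerase II inhibitor) and Mitomycin C at 2.56 and 0.553 uM (a DNA crosslinker). Cycloheximide at 5 and 0.264 uM blocks translation elongation, Rapamycin at 22 and 13.8 uM inhibits mTORC1, Geldanamycin at 0.032 and 0.001 uM inhibits the chaperone HSP90, and Trichostatin A at 0.143 and 0.114 uM inhibits histone deacetylases. H-7 at 20.2 and 12.4 uM is a broad protein kinase inhibitor, Blebbistatin at 100 and 10 uM inhibits myosin II, Monastrol at 100 and 50 uM inhibits a mitotic kinesin, and Vincristine at 0.01 and 0.005 uM blocks microtubule assembly. Methotrexate, an antifolate, was given at 100 uM on 6 arrays per time, whose labels use the replicate numbers 1 to 3 more than once, so they may stand for 3 cultures. Cells in medium alone had 2 arrays per time, and the reference was DMSO, labelled as 1% on its own arrays, with 8 arrays per time. All comparisons at one time share the same DMSO arrays. Nothing in the labels says that replicates came from separate cultures, so p-values measure the spread between these arrays, which may be technical, and the number of arrays limits the precision.

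Of 5 B-cell markers, the transcription factor PAX5 was the 1 that lay above the array median on every 6 h array, and CD79A, CD79B, CD22 and MS4A1 had median percentiles between 28.8 and 37.3 among all genes. None of the 4 T-cell, 3 myeloid, 3 epithelial and 3 fibroblast markers lay above the median on every 6 h array. Their median percentiles were 15.1 to 49.1, 3.68 to 38.1, 6.92 to 33 and 29.2 to 37.2. They thus overlapped the B-cell markers other than PAX5, and the T-cell markers CD2 (49.1) and CD3D (44) lay above those. No array at 6 h had a low signal, defined as an upper quartile of log2 values under 8 or an ACTB difference over 2 between 3′ and 5′ probe sets, but 31 arrays at 12 h and 17 at 24 h did. The 6 h arrays therefore carry the main account. Changes at 12 and 24 h are from all arrays unless they are given as without low-signal arrays. Where a result is given without a numbered replicate of a compound, arrays of that number were left out for all compounds at once.

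The promoters of the genes are shown first because the ATF4 element is what is known to tie them together. RefSeq start sites on GRCh38.p14 gave windows from 250 bases before to 50 after the start for 29 of the 36 genes, and the core of the composite element, TGATGNAA, was searched on both strands. It occurred in 9 of those 29 genes (31.0%), against 1217 of 27305 genes in the whole table (4.46%); per window, which allows for genes with several starts, it was 9 of 48 (18.8%) against 1270 of 35116 (3.62%). A match is a description of the letters and not evidence that ATF4 binds there. Besides the 6 genes below, SLC3A2, SLC7A1 and SLC1A4 had a match. Each segment is written in the direction that reads TGATGNAA, with the match in capitals, and the CHAC1 match lies on the strand opposite to the gene. Positions count from the start whose window holds the match. ASNS, ATF3, CEBPG, SLC1A5 and JDP2 also have windows at other starts, without a match. The 6 are a selection: ASNS, CHAC1, ATF3, CEBPG and SLC1A5 were each called with more than 1 of 27 treatments at 6 h. JDP2, with the same letters as CEBPG, was called with 1 and lay below the array median on all 94 arrays. The 3 genes not printed were called at 6 h too, SLC3A2 with 7 rises and 1 fall, SLC7A1 with 2 and 6, and SLC1A4 with 6 and 3. Members whose windows held no match ran from STC2, with no call, to SESN2, with 18 rises and no fall. The same tally over all genes was not made, so no difference is read from the match. ASNS is at chr7:97872459-97872486 on the minus strand, with its first base at −68 from the start; CHAC1 at chr15:40953252-40953279 on the minus strand, at −209; ATF3 at chr1:212565206-212565233 on the plus strand, at −191. CEBPG is at chr19:33374061-33374088 on the plus strand, at −42 from the start, SLC1A5 at chr19:46784894-46784921 on the minus strand, at −97, and JDP2 at chr14:75427996-75428023 on the plus strand, at −16.
ASNS: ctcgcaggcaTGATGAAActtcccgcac
CHAC1: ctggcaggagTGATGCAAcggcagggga
ATF3: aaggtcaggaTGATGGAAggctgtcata
CEBPG: gcgcggcgtcTGATGCAAcctgccggca
SLC1A5: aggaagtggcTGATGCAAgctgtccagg
JDP2: tagccggggcTGATGCAAcccgtcccgc

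For ASNS and CHAC1, whose levels recur below, the 250 bases before the start whose window holds the match are printed. They read in the direction of the gene, with the match in capitals. The ASNS stretch is chr7:97872409-97872658 on the minus strand and the CHAC1 stretch is chr15:40953221-40953470 on the plus strand of GRCh38.p14. CHAC1 reads TTGCATCA, the reverse complement, on its own strand.
ASNS upstream: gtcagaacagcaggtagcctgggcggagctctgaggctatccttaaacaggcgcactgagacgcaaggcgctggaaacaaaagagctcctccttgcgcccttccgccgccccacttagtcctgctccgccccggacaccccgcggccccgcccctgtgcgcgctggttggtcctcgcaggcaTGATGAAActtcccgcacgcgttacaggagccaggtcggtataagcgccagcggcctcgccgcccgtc
CHAC1 upstream: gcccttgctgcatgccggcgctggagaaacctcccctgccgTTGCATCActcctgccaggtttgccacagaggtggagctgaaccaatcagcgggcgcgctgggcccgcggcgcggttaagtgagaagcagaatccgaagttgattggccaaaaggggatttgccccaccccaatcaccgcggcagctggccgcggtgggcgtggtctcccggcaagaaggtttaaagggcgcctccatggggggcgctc

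Rapamycin at 22 uM raised more of these genes at 6 h than any other treatment. At an adjusted p under 0.05 in limma over all genes, 29 of 35 members rose and none fell against DMSO, where 13% of all genes rose and 13.6% fell. The median change of the members was 0.85 on the log2 scale, against −0.01 over all genes. For each of the 29 the 3 rapamycin arrays lay above all 8 DMSO arrays. Such a separation of called genes, here and below, only describes the arrays, and its share over all genes was not counted. In these bulk cultures a change in the share of cells that express a gene and a change in its RNA per cell cannot be told apart. JDP2, NUPR1, ALDH1L2, SLC6A9, STC2 and ADM2 were not called and overlapped DMSO. All 6 lay below the array median on all 94 arrays at 6 h. CHAC1 lay below it on 91 and DDIT3 on 75 of these arrays, and both rose. Whether dim signal hid changes in the 6 was not tested. Of the 9 genes with TGATGNAA, 8 rose and JDP2 was not called, beside 29 of all 35 members that rose, so no difference is read from the match.

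**Figure D1:**
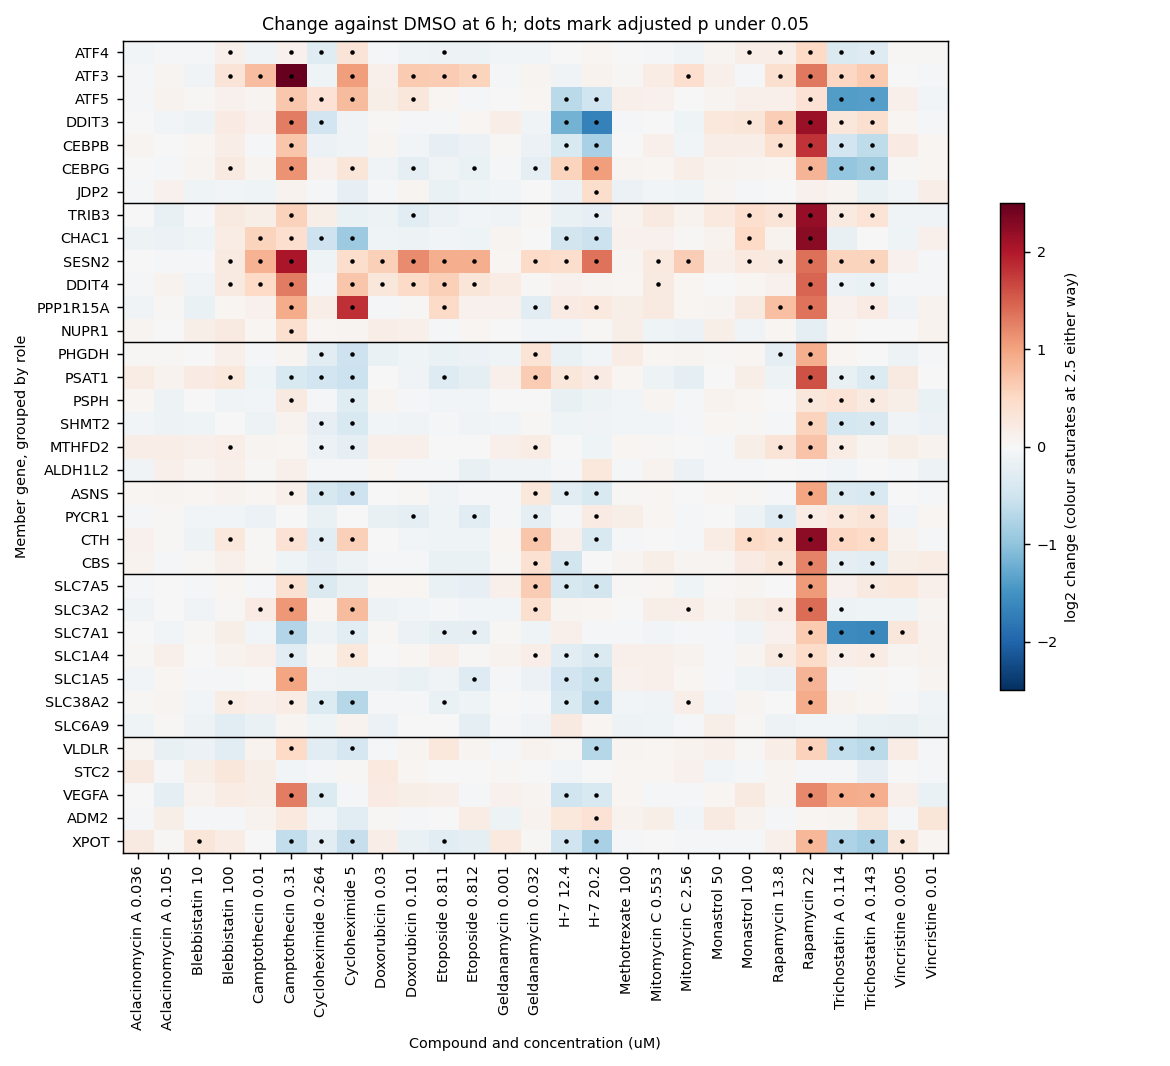
Log2 change of the 35 measured members (rows, grouped by role) against DMSO at 6 h for every compound and concentration in uM (columns, lower before higher concentration); dots mark an adjusted p under 0.05. The rapamycin 22 uM column has 29 rises and no fall, camptothecin 0.31 uM has 21 rises led by ATF3 (2.56), and SESN2 rose in 18 of the 27 columns.

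Among the transcription factors, 6 of 7 rose with rapamycin 22 uM. ATF4 itself had log2 levels of 13.03, 13.03 and 13.11 with rapamycin, against 12.49 to 12.65 in DMSO (median 12.57), a rise of 0.49 ± 0.04 (SE; adjusted p = 1.17e-18) or 1.41-fold. DDIT3, which encodes the stress-induced factor CHOP, had 8.25, 8.42 and 8.58, against 6.10 to 6.40 in DMSO (median 6.26), a rise of 2.15 ± 0.10 (adjusted p = 5.09e-33). The ATF4 transcript changed far less than DDIT3, and its protein was not measured. CEBPB, a C/EBP factor that can pair with ATF4, had 8.43, 8.58 and 8.71, against 6.67 to 6.85 in DMSO, a rise of 1.80 ± 0.09 (adjusted p = 1.91e-31). ATF3, a stress-induced repressor, had 10.44, 10.31 and 10.44, against 8.98 to 9.18 in DMSO, a rise of 1.32 ± 0.06 (adjusted p = 7.9e-32). The partner CEBPG and the related factor ATF5 rose by 0.85 and 0.37.

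Of the stress regulators, 5 of 6 rose, with a median change of 1.41. CHAC1, which degrades glutathione, had 8.15, 8.11 and 8.27 with rapamycin, against 5.84 to 6.07 in DMSO (median 5.91), a rise of 2.26 ± 0.10 (adjusted p = 6.18e-34) or 4.80-fold. TRIB3, a pseudokinase that restrains AKT and ATF4, had 10.53, 10.28 and 10.30, against 7.86 to 8.36 in DMSO, a rise of 2.20 ± 0.08 (adjusted p = 7.32e-41). For both genes every rapamycin array lay far above the highest DMSO array. DDIT4 and SESN2, both inhibitors of mTORC1 signalling, rose by 1.45 ± 0.05 and 1.37 ± 0.06, and PPP1R15A, the subunit that directs dephosphorylation of eIF2, rose by 1.36 ± 0.07.

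The enzymes that make amino acids rose as well, 5 of 6 in serine and one-carbon metabolism and all 4 of the others. CTH, which makes cysteine from cystathionine, had 10.83, 10.82 and 10.77 with rapamycin, against 8.43 to 8.68 in DMSO (median 8.58), a rise of 2.23 ± 0.07 (adjusted p = 1.65e-45). PSAT1, the second enzyme of serine synthesis, had 11.40, 11.37 and 11.63, against 9.73 to 10.03 in DMSO, a rise of 1.59 ± 0.08 (adjusted p = 2.43e-32). ASNS, asparagine synthetase, had 12.39, 12.40 and 12.45, against 11.36 to 11.49 in DMSO, a rise of 0.99 ± 0.04 (adjusted p = 1.04e-40) or 1.99-fold. CBS, which makes cystathionine and shares sequence with a near-identical gene copy, rose by 1.24, and PHGDH, the first enzyme of serine synthesis, by 0.90. MTHFD2 and SHMT2 of the mitochondrial folate pathway rose by 0.71 and 0.55, PSPH, the last enzyme of serine synthesis, by 0.28, and PYCR1, which makes proline, by 0.18.

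Of the transporters, 6 of 7 rose. SLC3A2 and SLC7A5, the 2 chains of the large neutral amino acid exchanger LAT1, rose by 1.39 and 1.06, the glutamine transporters SLC38A2 and SLC1A5 by 0.92 and 0.84, the arginine and lysine transporter SLC7A1 by 0.65 and the serine and alanine transporter SLC1A4 by 0.46. VEGFA, an angiogenic growth factor, rose by 1.20, XPOT, the nuclear exporter of tRNAs, by 0.83, and VLDLR, a lipoprotein receptor, by 0.57.

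**Figure D2:**
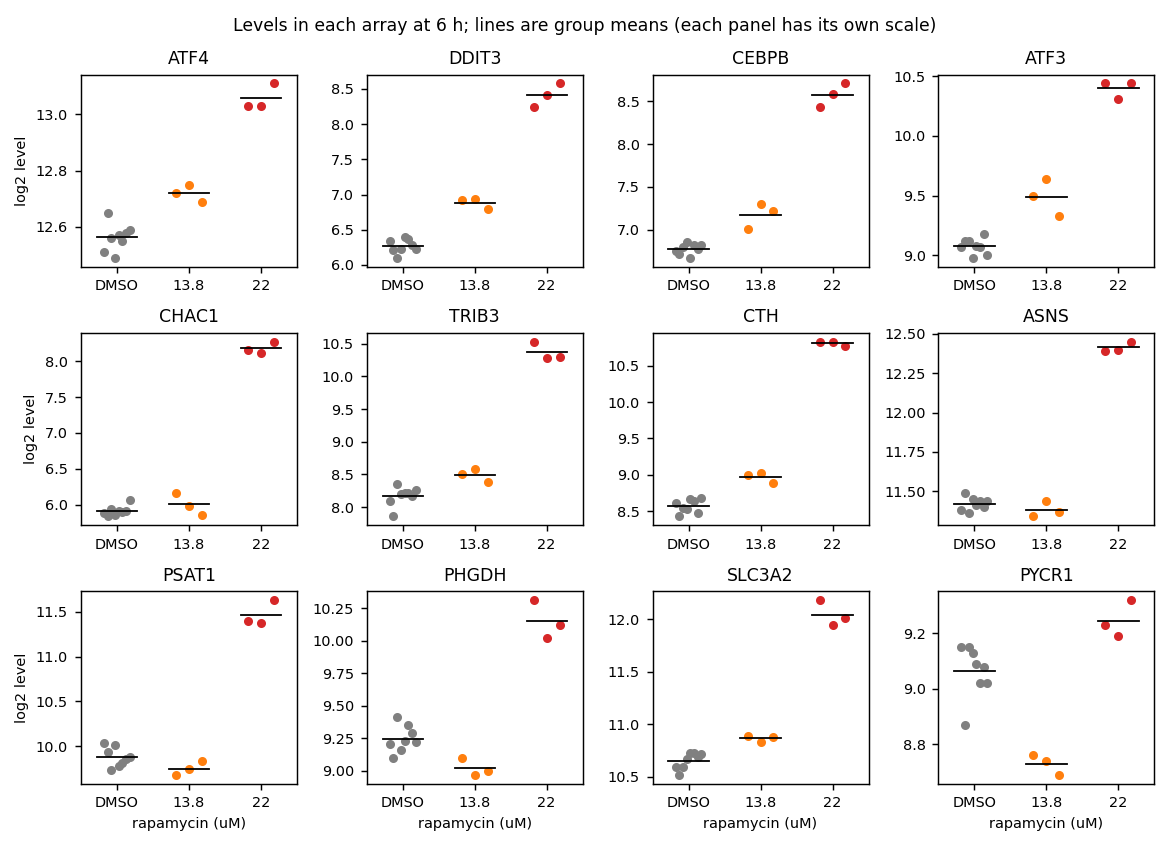
Log2 level of 12 members on each 6 h array (points) and group mean (line) in DMSO (8 arrays) and in rapamycin at 13.8 and 22 uM (3 arrays each); each panel has its own scale. CHAC1 and ASNS at 13.8 uM overlap DMSO and stand 2.17 and 1.03 below their means at 22 uM, and PYCR1 lies below DMSO at 13.8 uM and above it at 22 uM.

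The response depended steeply on the concentration. At 13.8 uM, 12 members rose and 2 fell against DMSO (10.7% of all genes rose and 7.11% fell), with a median of 0.09 over the members and 0.01 over all genes. PPP1R15A had 9.10, 9.01 and 9.07 with rapamycin 13.8 uM, against 8.09 to 8.46 in DMSO, a rise of 0.75 ± 0.07 (adjusted p = 2.51e-13). DDIT3 had 6.92, 6.94 and 6.79, against 6.10 to 6.40 in DMSO, a rise of 0.61 ± 0.10 (adjusted p = 1.03e-06). All arrays of both genes lay above DMSO. ATF3 had 9.50, 9.64 and 9.33, against 8.98 to 9.18, CEBPB had 7.01, 7.30 and 7.22, against 6.67 to 6.85, and CTH had 9.00, 9.02 and 8.89, against 8.43 to 8.68 in DMSO; these rose by 0.41, 0.40 and 0.40. TRIB3 had 8.50, 8.59 and 8.39, against 7.86 to 8.36 in DMSO (0.32 ± 0.08, adjusted p = 0.0012; adjusted p = 0.06 without replicate 2), and ATF4 had 12.72, 12.75 and 12.69, against 12.49 to 12.65 (0.16 ± 0.04, adjusted p = 0.00175). Of the 10 enzymes measured, CTH, MTHFD2 and CBS rose, PYCR1 and PHGDH fell and the other 5 were not called. ASNS had 11.34, 11.44 and 11.37, and CHAC1 6.17, 5.99 and 5.86, both within or beside the DMSO range and not called. The proline enzyme PYCR1 had 8.76, 8.74 and 8.69, against 8.87 to 9.15 in DMSO, and fell by 0.33 on the log2 scale (SE 0.06, adjusted p = 2.3e-05), and PHGDH fell by 0.22. In the direct comparison, 26 members were higher and none lower at 22 than at 13.8 uM, where 2.4% of all genes were higher; the median difference was 0.81. CHAC1 differed by 2.17 ± 0.12 (adjusted p = 7.87e-27), TRIB3 by 1.88 ± 0.09, CTH by 1.84 ± 0.08 and PSAT1 by 1.72 ± 0.09.

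Other genes of the pathway were read from lists that hold none of the members. All 12 tRNA synthetases linked to ATF4 rose at 22 uM, with a median of 0.55 and a range of 0.14 to 0.77, whereas none rose and 3 fell at 13.8 uM; of 7 other cytosolic synthetases, none rose and 3 fell at 22 uM. Of 18 other ATF4 targets, 11 rose and 2 fell at 22 uM, led by the cystine transporter SLC7A11 (2.64 ± 0.11) and PCK2, the mitochondrial enzyme of gluconeogenesis (1.57 ± 0.08). The eIF2 kinases and machinery were mixed, with 2 of 13 up and 5 down. Of 12 endoplasmic reticulum chaperones and targets of ATF6 and XBP1, 7 rose and 2 fell at 22 uM and 8 rose at 13.8 uM, with XBP1, the transcription factor of the unfolded protein response, at 1.29 ± 0.07 for 22 uM. Of 11 p53 targets, 4 rose at 22 uM. None of the 5 B-cell markers was called at either concentration.

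**Figure D3:**
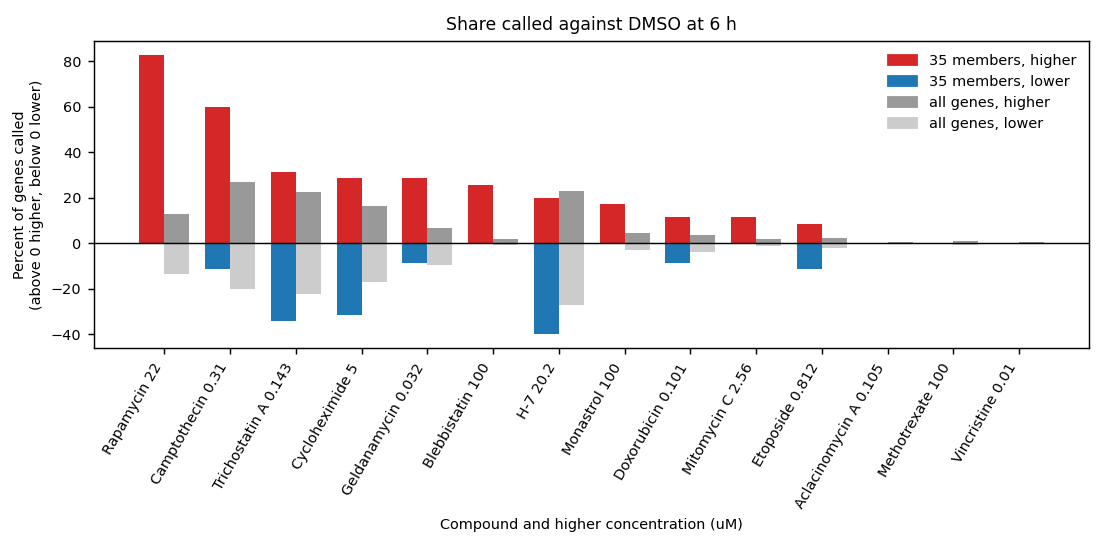
Percent of genes called at an adjusted p under 0.05 at 6 h for each compound at its higher concentration (uM, horizontal axis), for the 35 members (left bar of each pair) and all 18239 genes (right bar); rises are drawn above 0 and falls below 0. Rapamycin has 29 of 35 members up beside 13% of all genes, and H-7 has 14 members down beside 27%.

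Camptothecin at 0.31 uM gave the next largest set of changes, and its profile was different. It raised 21 members and lowered 4 at 6 h, where 27% of all genes rose and 19.9% fell, with a median of 0.25 over the members and 0.06 over all genes. ATF3 had 11.61, 11.59 and 11.70 with camptothecin, against 8.98 to 9.18 in DMSO (median 9.08), a rise of 2.56 ± 0.06 (adjusted p = 8.5e-54) or 5.88-fold. SESN2 had 11.17, 11.16 and 11.22, against 9.05 to 9.23 in DMSO, a rise of 2.05 ± 0.06 (adjusted p = 5.97e-49). Both genes stood far above every DMSO array. DDIT4 had 11.88, 11.85 and 11.92, against 10.40 to 10.72 in DMSO (1.30 ± 0.05), and VEGFA had 9.70, 9.50 and 9.49, against 8.08 to 8.42 (1.27 ± 0.10). DDIT3 had 7.46, 7.57 and 7.58, against 6.10 to 6.40 in DMSO (1.27 ± 0.10), and CEBPG had 10.84, 10.79 and 10.97, against 9.65 to 9.85 (1.12 ± 0.05). All 6 stress regulators rose, NUPR1, a small chromatin protein of the stress response, among them at 0.41, TRIB3 at 0.57 and CHAC1 at 0.42. The transporters SLC3A2 and SLC1A5 rose by 1.09 and 0.99.

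Of the 10 enzymes measured, CTH rose by 0.37 with camptothecin, PSPH by 0.23 and ASNS by 0.13, PSAT1 fell and the other 6 were not called. ASNS had 11.54, 11.56 and 11.54, against 11.36 to 11.49 in DMSO, a rise of 0.13 ± 0.04 (adjusted p = 0.00188). ATF4 had 12.66, 12.68 and 12.65, against 12.49 to 12.65, a rise of 0.10 ± 0.04 (adjusted p = 0.0284). The ATF4 call was lost when replicate 1, 2 or 3 of all compounds was left out (adjusted p = 0.051, 0.117 and 0.0702). Over the whole list, SLC7A1, XPOT, PSAT1 and SLC1A4 fell by 0.73, 0.61, 0.39 and 0.29 on the log2 scale. Of the 12 ATF4-linked synthetases, 1 rose and 6 fell. All 11 genes of the p53 list rose, with a median of 1.28, led by TP53INP1, an autophagy and cell death factor, at 2.66 ± 0.12, SESN1, a relative of SESN2, at 2.38 ± 0.06 and PHLDA3, an AKT repressor, at 2.37 ± 0.08. SESN2, ATF3 and DDIT4 are themselves known to respond to p53 as well as to ATF4, and the part of p53 in their rise was not tested.

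Set directly against rapamycin 22 uM, camptothecin 0.31 uM had 5 members higher and 19 lower, and 20.4% of all genes were higher with rapamycin. The share of all genes lower with rapamycin is not given here or for the pairs below. Counts in that direction are therefore not read as particular to the members. ATF3 was higher with camptothecin by 1.24 ± 0.08 (adjusted p = 6.54e-26) and SESN2 by 0.68 ± 0.07 (adjusted p = 4.93e-14); CEBPG, ATF5 and NUPR1 were the other 3. PSAT1 differed by −1.98 ± 0.09, CTH by −1.86 ± 0.08, CHAC1 by −1.84 ± 0.12 and ASNS by −0.87 ± 0.04, all lower with camptothecin. For DDIT4 the difference was −0.15 ± 0.07 (adjusted p = 0.0558) and for VEGFA 0.07 ± 0.12 (adjusted p = 0.681). Cycloheximide 5 uM had 2 members higher and 27 lower than rapamycin (15.4% of all genes were higher with rapamycin), and geldanamycin 0.032 uM had none higher and 28 lower (10.8%). Rapamycin had 27 members higher and none lower than trichostatin A 0.143 uM (21.4%). These are 4 of the 91 pairs of compounds compared at their higher concentrations.

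At 0.01 uM, camptothecin raised 5 members, SESN2 (0.86 ± 0.06), ATF3 (0.78 ± 0.06), CHAC1 (0.55 ± 0.10), DDIT4 (0.49 ± 0.05) and SLC3A2 (0.21 ± 0.05), and lowered none, where 2.09% of all genes rose. SESN2 had 10.04, 10.09 and 9.85, against 9.05 to 9.23 in DMSO, ATF3 had 9.91, 9.74 and 9.93, against 8.98 to 9.18, and CHAC1 had 6.52, 6.52 and 6.35, against 5.84 to 6.07. All 11 p53 targets rose here too, with a median of 0.86. Between the concentrations, 19 members were higher and 4 lower at 0.31 than at 0.01 uM, and 39.2% of all genes differed.

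Doxorubicin, etoposide and mitomycin C each raised SESN2 and ATF3 at their higher concentrations and called few other members. Doxorubicin at 0.101 uM raised 4 and lowered 3 (3.4% of all genes rose and 3.74% fell). SESN2 had 10.34, 10.27 and 10.34 with doxorubicin, against 9.05 to 9.23 in DMSO, a rise of 1.18 ± 0.06 (adjusted p = 3.47e-30), and ATF3 had 9.76, 9.73 and 9.71, against 8.98 to 9.18, a rise of 0.66 ± 0.06 (adjusted p = 3.97e-14). DDIT4 and ATF5 rose by 0.48 and 0.28, and TRIB3 (7.93, 7.84 and 7.90, against 7.86 to 8.36), PYCR1 and CEBPG fell, by 0.28, 0.25 and 0.23 on the log2 scale. Etoposide at 0.812 uM raised 3 and lowered 4 (2.48% and 2.09% of all genes), and at the nearly equal 0.811 uM raised 4 and lowered 5 (3.56% and 2.78%). SESN2 had 9.95, 10.07 and 10.08 at 0.812 uM, against 9.05 to 9.23 in DMSO, and rose by 0.90 ± 0.06, as it did by 0.91 ± 0.06 at 0.811 uM; ATF3 rose by 0.55 ± 0.06 and 0.63 ± 0.06. Mitomycin C at 2.56 uM raised SESN2 (9.75, 9.72 and 9.79, against 9.05 to 9.23 in DMSO; 0.62 ± 0.06), ATF3 (9.42, 9.55 and 9.53, against 8.98 to 9.18; 0.42 ± 0.06), SLC3A2 and SLC38A2, where 1.88% of all genes rose. All 11 p53 targets rose with doxorubicin 0.101 uM and with each etoposide concentration, and 9 rose with mitomycin C 2.56 uM.

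Cycloheximide moved members of the list in both directions. At 5 uM it raised 10 members and lowered 11 at 6 h (16.5% of all genes rose and 16.8% fell), with a median of −0.09. PPP1R15A had 10.05, 10.26 and 10.10 with cycloheximide, against 8.09 to 8.46 in DMSO, a rise of 1.83 ± 0.07 (adjusted p = 6.06e-37), its highest value in any treatment. ATF3 had 10.10, 10.17 and 10.10, against 8.98 to 9.18 in DMSO (1.05 ± 0.06), and ATF4 had 12.88, 12.84 and 12.92, against 12.49 to 12.65 (0.32 ± 0.04, adjusted p = 8.6e-11). SLC3A2 had 11.35, 11.49 and 11.51, against 10.52 to 10.73 in DMSO, and ATF5 had 9.86, 9.95 and 9.73, against 8.93 to 9.18; each rose by 0.80. Against this, CHAC1 had 5.40, 4.69 and 4.96, against 5.84 to 6.07 in DMSO, and fell by 0.90 (SE 0.10, adjusted p = 2.29e-12). SLC38A2 had 10.31, 10.20 and 10.32, against 10.92 to 11.12 in DMSO, and fell by 0.72, and ASNS had 10.96, 10.87 and 10.90, against 11.36 to 11.49, and fell by 0.51. Of the 7 transcription factors, 4 rose and none fell, and of the 6 stress regulators, 3 rose and CHAC1 fell. Of the serine and one-carbon enzymes, none rose and 5 of 6 fell, PSAT1 by 0.54 and PHGDH by 0.52.

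At 0.264 uM the direction for ATF4 turned. Cycloheximide raised 1 member and lowered 13, where 5.32% of all genes rose and 4.44% fell. ATF4 had 12.29, 12.25 and 12.26, against 12.49 to 12.65 in DMSO, and fell by 0.30 (SE 0.04, adjusted p = 1.67e-08), while ATF5 (9.21, 9.38 and 9.67, against 8.93 to 9.18) rose by 0.37. ASNS had 11.03, 10.99 and 11.00, against 11.36 to 11.49 in DMSO, and fell by 0.41, close to its fall at 5 uM. CHAC1 (5.30, 5.36 and 5.54, against 5.84 to 6.07), DDIT3 (5.53, 5.96 and 5.87, against 6.10 to 6.40), PSAT1 (9.35, 9.31 and 9.58, against 9.73 to 10.03) and SLC38A2 (10.63, 10.65 and 10.71, against 10.92 to 11.12) fell by 0.52, 0.48, 0.47 and 0.34. Between the concentrations, 11 members were higher and 6 lower at 5 than at 0.264 uM, PPP1R15A, ATF3, CTH, SLC3A2, DDIT4, ATF4, SESN2, ATF5, DDIT3, SLC1A4 and CEBPG among the higher ones; 21.2% of all genes differed.

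H-7 lowered more members than any other compound at 6 h. At 20.2 uM, 7 rose and 14 fell (23% of all genes rose and 27% fell). DDIT3 had 4.41, 4.70 and 4.63 with H-7, against 6.10 to 6.40 in DMSO, and fell by 1.69 (SE 0.10, adjusted p = 2.38e-27), its lowest level of any treatment at this time. CEBPB had 5.78, 6.24 and 5.85, against 6.67 to 6.85 in DMSO, XPOT had 8.67, 8.43 and 8.60, against 9.17 to 9.72, and VLDLR had 6.19, 5.56 and 5.91, against 6.37 to 6.84; these fell by 0.82, 0.82 and 0.71. SESN2 and CEBPG went the other way. SESN2 had 10.50, 10.50 and 10.49, against 9.05 to 9.23 in DMSO, a rise of 1.36 ± 0.06 (adjusted p = 9.32e-36), and CEBPG had 10.84, 10.79 and 10.76, against 9.65 to 9.85, a rise of 1.05 ± 0.05 (adjusted p = 3.3e-32). ASNS (11.02, 11.01 and 11.10, against 11.36 to 11.49 in DMSO), CHAC1 (5.52, 5.38 and 5.27, against 5.84 to 6.07) and TRIB3 (7.95, 7.86 and 8.11, against 7.86 to 8.36) fell by 0.38, 0.53 and 0.20, and TRIB3 overlapped DMSO. JDP2, a repressor related to ATF3, rose by 0.44 ± 0.11 in its 1 call at 6 h, with arrays that overlapped DMSO. Of the p53 targets, 10 of 11 rose and 1 fell. At 12.4 uM, 4 members rose and 12 fell (15.5% and 18% of all genes), and 5 members were higher and 7 lower at 20.2 than at 12.4 uM, where 30.8% of all genes differed.

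Trichostatin A at 0.143 uM raised 11 members and lowered 12 (22.3% of all genes rose and 22.4% fell). SLC7A1 had 8.25, 8.19 and 8.01 with trichostatin A, against 9.71 to 9.80 in DMSO, and fell by 1.61 (SE 0.06, adjusted p = 9.48e-40). ATF5 had 7.63, 7.63 and 7.75, against 8.93 to 9.18 in DMSO, and fell by 1.38 (SE 0.09, adjusted p = 8.12e-25). CEBPG (8.93, 8.83 and 8.85, against 9.65 to 9.85), XPOT (8.53, 8.56 and 8.51, against 9.17 to 9.72) and VLDLR (6.15, 5.69 and 5.90, against 6.37 to 6.84) fell by 0.88, 0.86 and 0.68. ATF4 had 12.26, 12.26 and 12.22, against 12.49 to 12.65 in DMSO, and fell by 0.32, and ASNS had 11.06, 11.06 and 11.00, against 11.36 to 11.49, and fell by 0.38. VEGFA (9.26, 9.23 and 9.12, against 8.08 to 8.42 in DMSO), ATF3 (9.77, 9.75 and 9.65, against 8.98 to 9.18), DDIT3 (6.57, 6.77 and 6.70, against 6.10 to 6.40) and TRIB3 (8.58, 8.48 and 8.49, against 7.86 to 8.36) rose by 0.91, 0.65, 0.41 and 0.34. At 0.114 uM, 10 members rose and 13 fell (22.4% and 21.9% of all genes), and between the nearly equal concentrations no member and 0% of all genes were called; the members' differences ranged from −0.23 to 0.20.

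Geldanamycin at 0.032 uM raised 10 members and lowered 3, where 6.73% of all genes rose and 9.75% fell. The 10 were 6 enzymes, 3 transporters and the stress regulator SESN2. CTH had 9.24, 9.24 and 9.32 with geldanamycin, against 8.43 to 8.68 in DMSO, a rise of 0.69 ± 0.07 (adjusted p = 4.42e-14), and PSAT1 had 10.54, 10.42 and 10.60, against 9.73 to 10.03, a rise of 0.64 ± 0.08. SLC7A5 (10.11, 10.26 and 10.14, against 9.37 to 9.71), SESN2 (9.61, 9.53 and 9.67, against 9.05 to 9.23), SLC3A2 (10.97, 11.06 and 11.13, against 10.52 to 10.73) and CBS (9.34, 9.25 and 9.45, against 8.85 to 9.08) rose by 0.63, 0.47, 0.40 and 0.39. ASNS had 11.67, 11.67 and 11.73, against 11.36 to 11.49 in DMSO, a rise of 0.27 ± 0.04 (adjusted p = 3.48e-09). ATF4, DDIT3, TRIB3, CHAC1 and ATF3 were not called, and PPP1R15A, PYCR1 and CEBPG fell, by 0.27, 0.25 and 0.22. SLC7A11, outside the list, rose by 1.34 ± 0.11. At 0.001 uM no member was called (0.0822% of all genes).

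Smaller rises came with monastrol and blebbistatin. Monastrol at 100 uM raised 6 members and lowered none (4.61% of all genes rose). CHAC1 had 6.55, 6.30 and 6.36, against 5.84 to 6.07 in DMSO (0.49 ± 0.10), CTH 9.12, 9.04 and 8.98, against 8.43 to 8.68 (0.47 ± 0.07), and TRIB3 8.65, 8.60 and 8.52, against 7.86 to 8.36 (0.42 ± 0.08). DDIT3 had 6.69, 6.61 and 6.41, against 6.10 to 6.40 in DMSO (0.30), SESN2 9.36, 9.38 and 9.42, against 9.05 to 9.23 (0.25), and ATF4 12.74, 12.72 and 12.73, against 12.49 to 12.65 (0.17). All 6 lay above DMSO on every array, but none changed by more than 1.40-fold. Blebbistatin at 100 uM raised 9 members (1.67% of all genes rose). ATF3 rose the most, with 9.36, 9.50 and 9.32, against 8.98 to 9.18 in DMSO (0.32 ± 0.06, adjusted p = 0.000858, but 0.0583 without replicate 2). The count fell to 4, 1 and 4 without replicates 1, 2 and 3 of all compounds and to 5 without DMSO replicate 3.

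The remaining treatments at 6 h called few members or none. Aclacinomycin A at 0.105 and 0.036 uM called none (0.773% and 0% of all genes), nor did methotrexate 100 uM (1.75%), vincristine 0.01 uM (0.949%) or monastrol 50 uM (1.47%). Vincristine 0.005 uM raised SLC7A1 and XPOT (2.61%), blebbistatin 10 uM raised XPOT (2.63%), and doxorubicin 0.03 uM and mitomycin C 0.553 uM each raised SESN2 and DDIT4 (0.548% and 0.938%). Cells in medium alone differed from DMSO in 15 members, 10 higher and 5 lower, on 2 arrays (11.7% of all genes were higher and 13.8% lower). CBS had 9.63 and 9.89 in medium, against 8.85 to 9.08 in DMSO (0.81 ± 0.09, adjusted p = 5.22e-13), and CTH had 7.97 and 8.19, against 8.43 to 8.68 (−0.49 ± 0.08, adjusted p = 3.85e-07). PYCR1 (9.83 and 9.59, against 8.87 to 9.15), DDIT4 (11.14 and 11.32, against 10.40 to 10.72) and VEGFA (8.76 and 8.99, against 8.08 to 8.42) were higher in medium by 0.65, 0.65 and 0.58. DDIT3 (5.80 and 5.94, against 6.10 to 6.40), ATF3 (8.83 and 8.65, against 8.98 to 9.18) and ASNS (11.24 and 11.23, against 11.36 to 11.49) differed by −0.40, −0.34 and −0.19, so the DMSO arrays were not at the level of cells in medium.

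Across the 27 comparisons of a compound with DMSO at 6 h, SESN2 was the member called most often, up in 18 and down in none, with changes from −0.10 to 2.05. ATF3 rose in 12 and fell in none, DDIT4 rose in 10 and fell in 2, and CTH rose in 9 and fell in 2. ASNS rose in 3 and fell in 6, XPOT rose in 3 and fell in 8, and ATF4 rose in 6 and fell in 4. ALDH1L2, a mitochondrial folate dehydrogenase, SLC6A9, a glycine transporter, and STC2, a secreted glycoprotein, were called in none. The same tally over all genes was not made, and H-7 20.2 uM alone called 23% of all genes up and 27% down. These tallies therefore only describe the members and are not read as particular to them. Over the 29 group means at 6 h, which share arrays and normalization, the member most like ASNS was CHAC1 (Pearson r = 0.87, 0.68 without the 2 rapamycin groups) together with SHMT2 (0.87 and 0.74), and the member most like SESN2 was ATF3 (0.81 and 0.79), then DDIT4 (0.66 and 0.62). SESN2 and ASNS had r = 0.23, and −0.01 without rapamycin. These correlations describe the group means and were not tested.

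At 12 h rapamycin 22 uM still raised part of the list. With all arrays, 14 members rose and none fell (1.96% of all genes rose); without the low-signal arrays, which leaves 1 of the 3 rapamycin arrays and 4 of the 8 DMSO arrays, 26 rose (5.41%). TRIB3 had 10.58, 10.16 and 9.70 with rapamycin, against 6.86 to 8.25 in DMSO, a rise of 2.57 ± 0.40 (adjusted p = 9.04e-06; 2.79 ± 0.31 without low-signal arrays). CTH had 10.39, 9.62 and 10.10, against 7.42 to 8.44 in DMSO, a rise of 2.10 ± 0.37 (2.27 ± 0.20). Both lay above every DMSO array. CHAC1 (7.95, 7.51 and 6.94, against 5.10 to 6.31 in DMSO), PSAT1 (10.89, 10.45 and 10.72, against 8.60 to 9.60), CEBPB (8.27, 8.41 and 8.21, against 6.47 to 7.05) and SLC3A2 (11.79, 11.70 and 11.62, against 9.48 to 10.47) rose by 1.61, 1.59, 1.55 and 1.50 (1.84, 1.55, 1.62 and 1.44 without low-signal arrays). ASNS had 12.24, 12.41 and 12.23, against 10.58 to 11.16 in DMSO (1.33 ± 0.27; 1.21 ± 0.09 without low-signal arrays), and DDIT3 had 7.96, 7.72 and 7.74, against 6.46 to 6.91 (1.18 ± 0.21; 1.38 ± 0.30).

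By 24 h the rises were smaller. Rapamycin 22 uM raised 1 member and lowered none with all arrays (1.06% of all genes rose and 1.44% fell), namely PHGDH, with 9.88, 9.84 and 9.80, against 8.87 to 9.62 in DMSO (0.62 ± 0.16, adjusted p = 0.0153; adjusted p = 0.0952 without replicate 1 and 0.127 without replicate 2). CHAC1 had 6.41, 6.57 and 5.80, against 5.59 to 6.52 in DMSO, and DDIT3 had 6.90, 6.44 and 5.42, against 6.18 to 6.97; neither was called and both overlapped DMSO. Without the low-signal arrays, one of which was rapamycin replicate 3, 11 members rose and 2 fell (14.5% and 13.2% of all genes), ATF5 by 0.86 ± 0.09, ATF4 by 0.61 ± 0.05, ASNS by 0.47 ± 0.05 and CHAC1 by 0.37 ± 0.15. The change at 24 h minus that at 6 h was called for 5 members, all below 0, with all arrays (0.175% of all genes), namely DDIT3 (−2.37 ± 0.28), CHAC1 (−2.13 ± 0.27), DDIT4 (−2.00 ± 0.47), CEBPB (−1.35 ± 0.20) and SESN2 (−1.32 ± 0.22), which became −1.97, −1.89, −1.71, −1.37 and −1.41 without low-signal arrays. Without low-signal arrays it was called for 26 (12.2% of all genes), 25 below 0 and ATF5 above it at 0.50 ± 0.16.

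**Figure D4:**
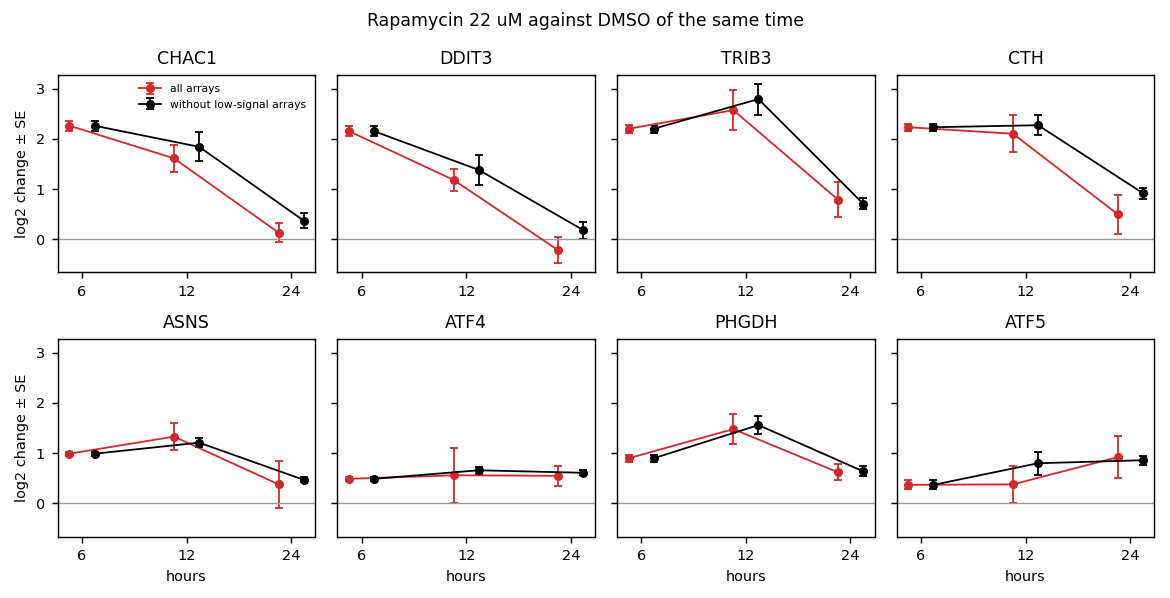
Log2 change (± SE) of 8 members with rapamycin 22 uM against DMSO of the same time (horizontal axis, hours), with all arrays (red) and without low-signal arrays (black). CHAC1 runs from 2.26 at 6 h over 1.61 at 12 h to 0.13 at 24 h with all arrays, whereas ATF4 without low-signal arrays is still at 0.61 at 24 h.

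Methotrexate showed the reverse order in time. None of the members was called at 6 h and, with all arrays, none at 12 h. At 12 h 31 of the 94 arrays had a low signal, and the count without them is not given. At 24 h 6 members rose and 2 fell (3.42% of all genes rose and 1.32% fell). Without low-signal arrays 11 rose and 8 fell at 24 h, where 15% and 20.6% of all genes did. ATF3 ran from 11.13 to 11.29 (median 11.24) with methotrexate, against 8.71 to 9.03 in DMSO (median 8.83), a rise of 2.36 ± 0.43 (adjusted p = 5.97e-05; 2.34 ± 0.05 without low-signal arrays). SESN2 ran from 11.24 to 11.38 (median 11.29), against 8.95 to 9.47 in DMSO (median 9.29), a rise of 2.04 ± 0.14 (adjusted p = 1.1e-19; 2.02 ± 0.06 without low-signal arrays). All 6 arrays of both genes lay above all DMSO arrays. DDIT3 ran from 7.50 to 7.77, against 6.18 to 6.97 in DMSO (1.11 ± 0.21), CHAC1 from 6.91 to 7.19, against 5.59 to 6.52 (0.93 ± 0.15), and DDIT4 from 11.34 to 11.45, against 10.02 to 10.53 (1.12 ± 0.32). Without low-signal arrays these 3 rose by 1.09, 0.94 and 1.14. CTH ran from 9.12 to 9.32, against 7.87 to 8.21 in DMSO (1.16 ± 0.31, and 1.18 ± 0.08 without low-signal arrays). It was not called when methotrexate arrays with the same replicate number were averaged (adjusted p = 0.17) or without replicate 1 of all compounds (0.106). PYCR1 fell by 0.71 (adjusted p = 0.311 after that averaging; 0.72 without low-signal arrays) and XPOT also fell. The change at 24 h minus that at 6 h was called for 6 members (2.51% of all genes) and 16 without low-signal arrays (27.2%), with ATF3 at 2.33 ± 0.47, SESN2 at 1.98 ± 0.17 and PYCR1 at −0.86 ± 0.25. Of the 11 p53 targets, 8 rose at 24 h and 1 at 6 h.

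Doxorubicin at 0.101 uM raised 3 members and lowered 3 at 24 h (3% and 3.07% of all genes; 15 and 10 without low-signal arrays, against 15.9% and 19.9%). SESN2 had 11.34, 11.19 and 11.12, against 8.95 to 9.47 in DMSO (1.96 ± 0.17, adjusted p = 1.31e-14), and DDIT3 had 7.92, 7.97 and 7.63, against 6.18 to 6.97 (1.37 ± 0.26, adjusted p = 0.000123). ATF3 had 10.74, 10.71 and 10.70, against 8.71 to 9.03 in DMSO, a rise of 1.86 ± 0.54 (adjusted p = 0.0209; 0.126 without replicate 1 and 0.0564 without replicate 2). The 3 members that fell were all enzymes, of 10 enzymes measured. PHGDH had 7.65, 7.87 and 7.62, against 8.87 to 9.62 in DMSO, and fell by 1.50 (SE 0.16, adjusted p = 1.9e-11), and PYCR1 had 8.43, 8.16 and 8.12, against 9.34 to 9.91, and fell by 1.40 (SE 0.27). CBS had 8.68, 8.73 and 8.87, against 9.56 to 10.16 in DMSO, and fell by 1.14 (adjusted p = 0.0432; 0.292 without replicate 1). Without low-signal arrays SESN2, DDIT3 and ATF3 rose by 1.94, 1.35 and 1.84, and PHGDH, PYCR1 and CBS fell by 1.50, 1.41 and 1.19.

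Camptothecin 0.31 uM had 6 members up and 2 down at 12 h (4.85% of all genes rose). Without low-signal arrays 13 were up and 6 down, where 16.1% of all genes rose. The share of all genes that fell at 12 h is not given, so these falls are not read as particular to the members. ATF3 had 11.25, 11.43 and 11.23 at 12 h, against 8.57 to 9.29 in DMSO (2.39 ± 0.44; 2.25 ± 0.12 without low-signal arrays), and SESN2 10.90, 10.78 and 10.96, against 8.26 to 9.15 (2.11 ± 0.20; 2.00 ± 0.11). VEGFA (9.39, 8.64 and 9.57, against 5.31 to 7.85), SLC3A2 (11.70, 11.73 and 11.81, against 9.48 to 10.47), PPP1R15A (8.97, 8.63 and 8.93, against 7.54 to 8.40) and DDIT3 (7.63, 7.11 and 7.28, against 6.46 to 6.91) rose by 1.97, 1.55, 0.77 and 0.71 (1.92, 1.40, 0.77 and 0.87 without low-signal arrays), and PYCR1 (8.45, 8.04 and 8.27, against 8.80 to 9.39) fell by 0.87 (0.77). DDIT4 and CEBPG, called at 6 h, were at 1.05 and 0.93 with all arrays and not called (adjusted p = 0.0821 and 0.144), and were called without low-signal arrays at 0.86 and 0.87; TRIB3 and CHAC1 were called in neither. At 24 h, 5 members rose and 2 fell (2.8% and 5.41% of all genes; 12 and 6 without low-signal arrays, against 18.6% and 15.4%). ATF3 had 10.73, 10.75 and 10.62, against 8.71 to 9.03 in DMSO (1.84 ± 0.54, adjusted p = 0.0174; 0.106 without replicate 1), SESN2 10.74, 10.98 and 10.74, against 8.95 to 9.47 (1.56 ± 0.17), and DDIT3 7.35, 7.50 and 7.28, against 6.18 to 6.97 (0.90 ± 0.26). CHAC1 had 7.43, 7.34 and 7.43, against 5.59 to 6.52 in DMSO, a rise of 1.27 ± 0.19 (adjusted p = 2.29e-07) that was its highest at 24 h. CBS (8.56, 8.82 and 8.78, against 9.56 to 10.16) and PHGDH (8.79, 8.65 and 8.44, against 8.87 to 9.62) fell by 1.18 and 0.59. Without low-signal arrays ATF3, SESN2, DDIT3 and CHAC1 rose by 1.81, 1.58, 0.90 and 1.27, and CBS and PHGDH fell by 1.15 and 0.67.

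Etoposide 0.812 uM at 24 h raised SESN2 (10.72, 10.78 and 10.80, against 8.95 to 9.47 in DMSO), by 1.51 ± 0.17. It raised DDIT3 (7.38, 7.37 and 7.54, against 6.18 to 6.97) by 0.96 ± 0.26 (adjusted p = 0.0381). That adjusted p was between 0.0508 and 0.251 without replicate 1, 2 or 3 of all compounds or without any 1 of 5 of the DMSO arrays. It lowered PHGDH (8.38, 8.18 and 8.37, against 8.87 to 9.62) by 0.91. Without low-signal arrays the changes of SESN2, DDIT3 and PHGDH were 1.49, 0.94 and −0.91. That is 2 up and 1 down beside 0.927% and 0.526% of all genes, and 8 and 8 without low-signal arrays beside 11.4% and 13.6%. Mitomycin C 2.56 uM raised 3 and lowered 10 (7.77% and 18.1% of all genes), but its replicate 2 was a low-signal array and held much of the fall; without low-signal arrays 13 rose and 6 fell (14.2% and 15.6%). SESN2 had 11.39, 10.06 and 11.27 with mitomycin C, against 8.95 to 9.47 in DMSO (1.65 ± 0.17; 2.05 ± 0.08 without low-signal arrays), DDIT3 7.74, 6.75 and 7.82, against 6.18 to 6.97 (0.96; 1.29), and CHAC1 7.10, 5.98 and 7.22, against 5.59 to 6.52 (0.64; 1.04). CBS had 9.21, 5.81 and 9.13, against 9.56 to 10.16 in DMSO (−1.85 ± 0.36, but −0.73 and adjusted p = 0.588 without replicate 2 of all compounds). XPOT had 9.32, 6.97 and 9.48, against 9.60 to 10.22 (−1.26, and −0.49 without low-signal arrays). PYCR1 had 8.75, 8.10 and 8.82, against 9.34 to 9.91 (−1.08, and −0.86 without low-signal arrays).

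**Figure D5:**
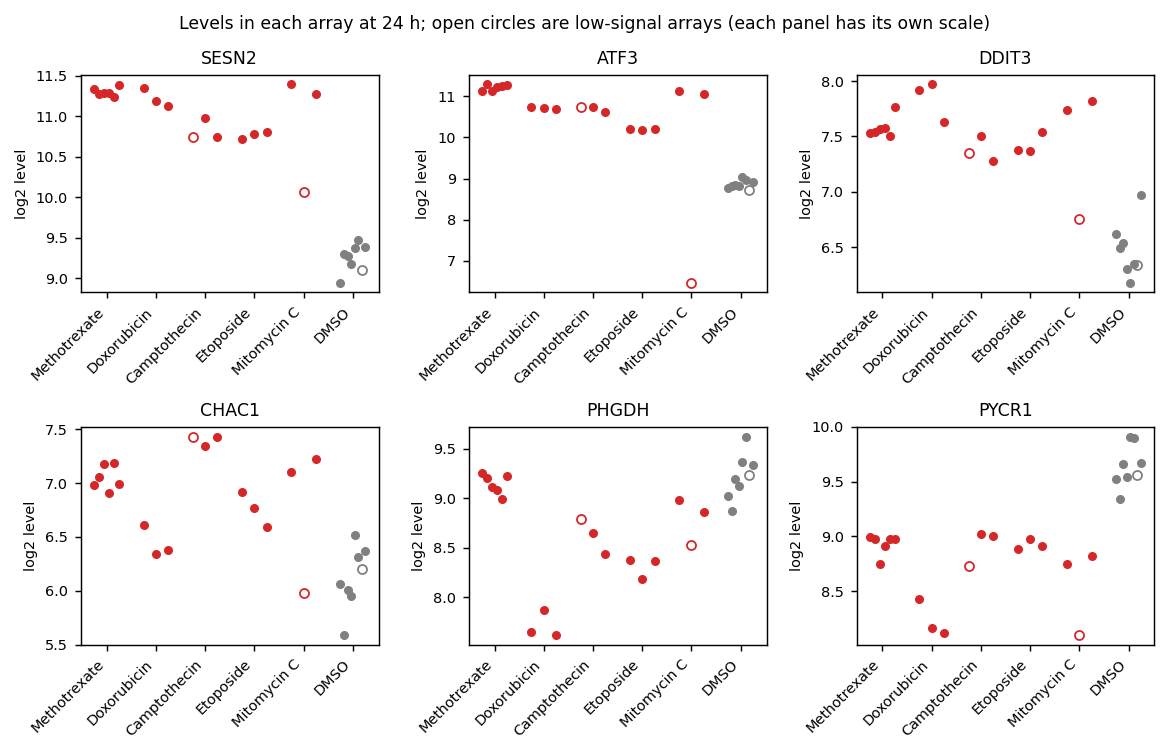
Log2 level of 6 members on each 24 h array for methotrexate 100 uM (6 arrays), doxorubicin 0.101 uM, camptothecin 0.31 uM, etoposide 0.812 uM and mitomycin C 2.56 uM (3 arrays each) and DMSO (8 arrays); open circles are low-signal arrays and each panel has its own scale. SESN2 is above DMSO on every treated array, PYCR1 is below DMSO on every one, and PHGDH with doxorubicin (7.62 to 7.87) lies lowest.

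Cycloheximide 5 uM at 24 h raised 1 member, NUPR1 (5.92, 5.74 and 5.93, against 4.69 to 5.57 in DMSO; 0.82 ± 0.24, and 0.77 ± 0.23 without low-signal arrays), and lowered 9 (5.97% and 7.52% of all genes); without low-signal arrays, which leaves 1 cycloheximide array, 10 rose and 15 fell (19.3% and 15.5%). SHMT2 had 9.62, 9.61 and 5.43, against 10.87 to 11.51 in DMSO (−3.04 ± 0.74; −1.68 ± 0.13 without low-signal arrays), so replicate 3 set its size. PSAT1 (8.00, 8.21 and 8.18, against 9.40 to 10.13) and CBS (8.65, 8.62 and 8.23, against 9.56 to 10.16) fell by 1.69 and 1.40, SLC7A5 (8.87, 9.06 and 8.44, against 9.24 to 10.19) and PYCR1 (9.27, 8.86 and 7.91, against 9.34 to 9.91) by 0.98 and 0.96, and CHAC1 (5.31, 5.66 and 5.09, against 5.59 to 6.52) by 0.77. Without low-signal arrays PSAT1, CBS, SLC7A5 and PYCR1 fell by 1.66, 1.33, 0.78 and 0.79, and CHAC1 was at −0.46 and not called (adjusted p = 0.0619). H-7 20.2 uM lowered 16 members and raised none (13.5% and 7.17% of all genes; 15 down and 1 up without low-signal arrays, against 11.1% and 9.73%). DDIT3 had 5.60, 4.48 and 6.49 with H-7, against 6.18 to 6.97 in DMSO (−0.95 ± 0.26; −1.45 ± 0.17 without the low-signal replicate 3). That replicate was far below the other 2 for ASNS (10.87, 10.75 and 6.77, against 10.95 to 11.28 in DMSO) and ATF5 (8.74, 9.13 and 5.21, against 9.29 to 9.76). Their falls of 1.73 and 1.86 became −0.42 ± 0.05 and −0.62 ± 0.09 without low-signal arrays. They were −0.38 and −0.62, no longer called, when replicate 3 of all compounds was left out and low-signal arrays of other numbers stayed in. ATF4 (12.33, 12.41 and 10.84, against 12.45 to 12.62), SLC38A2 (10.76, 10.46 and 8.01, against 10.90 to 11.25) and VEGFA (8.06, 7.84 and 7.09, against 8.72 to 9.32) fell by 0.68, 1.33 and 1.28 (0.16, 0.49 and 1.00 without low-signal arrays), ATF4 likewise not called without replicate 3, and CHAC1 (5.57, 5.89 and 5.30, against 5.59 to 6.52) fell by 0.54 (−0.39, adjusted p = 0.05, without low-signal arrays).

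One group at 12 h rested on a single array. Geldanamycin 0.001 uM lowered 16 members and raised 1 at 12 h (22.7% of all genes fell). ATF4 had 12.58, 4.15 and 12.65 with geldanamycin, against 12.55 to 12.70 in DMSO, ASNS had 11.01, 7.36 and 11.09, against 10.58 to 11.16, and ATF3 had 9.33, 3.38 and 9.08, against 8.57 to 9.29. Replicate 2, a low-signal array, was low for all 3 genes and the other 2 arrays were near or within the DMSO range. Without low-signal arrays no member and 0% of all genes were called, and ATF4, ASNS and ATF3 differed from DMSO by 0.00 ± 0.05, 0.02 ± 0.07 and 0.22 ± 0.12.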

How the data were processed

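RNA of OCI-Ly3 cells was measured on 282 Affymetrix HT HG-U219 arrays. The log2 values used here were deposited by the authors as one table of 49386 probe sets; they were made with RMA, per the submitters' processing notes, whose version is not given in the sources used here. RMA sets all arrays to one distribution within a run, so a general change of RNA per cell does not show. Platform annotation gave 45259 probe sets 1 gene symbol, 1327 several or none and 2800 no entry; 93 control probe sets were left out. Each of 18239 genes was represented by its probe set with the highest mean. ATF4 has a single probe set, of a kind that can match other transcripts, and CBS has a near-identical copy.

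For each time, limma 3.58.1 in R 4.3.3 was fitted over all 94 arrays with 1 mean per compound and concentration and no batch term, and Benjamini-Hochberg adjusted p-values were taken over all genes; a call means an adjusted p under 0.05. SEs pool the spread over all groups of that time. Groups came from the sample labels. Tables and plots used Python 3.11.15, numpy 2.4.6, pandas 2.3.3 and matplotlib 3.10.9. The fit was tested on simulated data with known changes. Values per array are given for ASNS, ATF4, DDIT3, TRIB3, CHAC1 and ATF3 where called and for the 6 members with the largest called changes whose arrays lay apart from DMSO; other members are given as changes, and at most 3 genes outside the list are named per comparison. The members and all lists were chosen with earlier results of these data known, and their calls are not independent support for each other.

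Replicate numbers were checked for pairing: over 1131 pairs of same-numbered arrays at 6 h, deviations from the group means had a median correlation of 0.00 (−0.34 to 0.41), and 9.46% were over 0.1. At 12 and 24 h the median was also 0.00 (−0.57 to 0.67 and −0.65 to 0.80), and 30.5% and 26.3% were over 0.1. Because of the medians, the numbers were not taken to pair arrays, which does not exclude a link between some groups. The results were recomputed after a second quantile normalization, without the dimmest 40% of genes, with the mean of all probe sets, in fits of only the 2 groups compared, with replicate number as a block, without low-signal arrays, with methotrexate arrays averaged by replicate number and without each replicate in turn. A DMSO replicate was left out as 1 array, whereas a drug replicate number was left out for all compounds at once.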

Additional observations from a re-analysis of the deposited data

Results flagged for a closer look

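In the groups of 8 DMSO and 6 methotrexate arrays, single arrays stood apart from the rest of their group for some members. This was seen for 3, 6 and 3 members in DMSO at 6, 12 and 24 h, and for 7, 9 and 2 members with methotrexate at those times, 30 of 210 tests in all, where chance gives about 1 in 20. At 12 h methotrexate replicate 2, with a low-signal array under that number, was the one apart for 8 of the 9, among them CTH at 6.75, where the other 5 arrays started at 7.85, and all 6 in DMSO were low-signal arrays. In DMSO at 24 h all 3 were replicate 7, also a low-signal array. At 6 h, where no array had a low signal, methotrexate SESN2 reached 9.55 on 1 array and ATF5 reached 9.83.

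The change against DMSO at 24 h differed from that at 6 h for some members, tested within 1 model with all arrays. With rapamycin 22 uM it differed for 5 members and with methotrexate for 6, as described above. The share of all genes is given there for these 2 compounds only. The counts for the compounds that follow have no such share beside them and are not read as particular to the members. With doxorubicin 0.101 uM it differed for 4, upward for DDIT3 (1.42 ± 0.28) and SESN2 (0.78 ± 0.22) and downward for PHGDH (−1.40 ± 0.28) and PYCR1 (−1.15 ± 0.31), at 1.40, 0.75, −1.40 and −1.16 without low-signal arrays. With mitomycin C 2.56 uM it differed for 8, upward for DDIT3 and SESN2 and downward for the other 6, of which PSAT1, SHMT2 and SLC7A1 were not called without low-signal arrays. With H-7 20.2 uM it differed for 9, all downward; SESN2 (−1.69 ± 0.22, −1.35 without low-signal arrays) and CEBPG (−1.44 ± 0.40, −1.20) held, whereas ASNS (−1.35 ± 0.45) was at −0.04 without low-signal arrays. With trichostatin A 0.143 uM it differed for 6, downward most for VEGFA (−2.52 ± 0.41) and upward for SLC7A1 (1.29 ± 0.45), at −2.07 and 1.30 without low-signal arrays. With cycloheximide 5 uM it differed for 3, PPP1R15A (−1.98 ± 0.33), SHMT2 (−2.65 ± 0.74) and CTH (−1.60 ± 0.45), which were −0.66, −1.29 and −0.76 without low-signal arrays. Low-signal arrays move with these differences; their part was not tested beyond leaving them out.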

How the results depend on the processing

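At 6 h the counts of members called were within 1.5 times those reported under the alternatives run, apart from the following. Blebbistatin 100 uM had 9 calls, 5 with the mean of all probe sets and 2 with the replicate block; doxorubicin 0.101 uM had 7, and 4 with the block. Methotrexate had 0, 2 without the 40% dimmest genes and 3 with the mean of probe sets; mitomycin C 2.56 uM had 4, and 2 with that mean; monastrol 100 uM had 6, and 10 without the dimmest genes. Each DMSO replicate, and each drug replicate number for all compounds at once, was left out in turn. This gave 0 to 1 calls for aclacinomycin A 0.105 uM and for vincristine 0.01 uM, 1 to 9 for blebbistatin and 4 to 7 for doxorubicin (4 without drug replicate 1 or 2). It gave 0 to 2 for methotrexate (2 without drug replicate 2) and 2 to 5 for mitomycin C (2 without drug replicate 2 or DMSO replicate 2), against 27 to 30 for rapamycin 22 uM. Summed over the 14 higher concentrations, calls at 12 h were 45, but 85 with only the 2 groups compared. They were 23, 103 and 27 without drug replicates 1, 2 and 3. Without low-signal arrays they were 120, summed over only the 11 compounds that kept an array. At 24 h they were 70 (55 to 74 leaving out a replicate), but 130 with only the 2 groups compared, 30 with the replicate block and 208 without low-signal arrays. No share of all genes stands beside these sums, so their shifts are not read as particular to the members. Leaving out low-signal arrays at 24 h also moved shares over all genes, from 1.06% to 14.5% for rises with rapamycin 22 uM and from 18.1% to 15.6% for falls with mitomycin C 2.56 uM. The block was not taken as a pairing, since same-numbered arrays had a median correlation of 0.00 at each time. At 24 h, though, 26.3% of the same-numbered pairs were over 0.1 with all arrays and 10.6% without low-signal arrays. Whether some groups shared a batch was not tested. Of 1784 alternatives for 109 single results, 1718 kept direction and call, 65 lost the call and 1 turned: ATF4 with geldanamycin 0.001 uM at 12 h, 0.00 without low-signal arrays. H-7 12.4 uM at 24 h, and aclacinomycin A 0.105 uM, blebbistatin at both concentrations and doxorubicin 0.101 uM at 12 h, had no array without low signal and were not run that way. The cause was not tested for any of these. Members below the array median, the 6 uncalled with rapamycin among them, may be limited by dim signal, which was not tested.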
